A study of Mus musculus with 15 samples.

Results

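The mitochondrial carriers of the Slc25 family were followed in RNA from whole mouse hearts after sham surgery or transverse aortic constriction (TAC), with and without overexpression of the deacylase SIRT5. Members were taken as the protein-coding genes of a symbol made of Slc25a and a number whose normalized count, the unit of the deposited table, reached at least 10 in at least 3 hearts. Of 47 such symbols 43 passed, out of 16518 features that passed the same filter. Slc25a21, Slc25a41, Slc25a48 and Slc25a54 did not pass and are not described further. Among the members, Slc25a2 reached 10 in 3 hearts, Slc25a31 in 5, Slc25a18 in 8 and Slc25a43 in 14, and the others did so in all 15.

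The inner membrane of the mitochondrion is impermeable to most metabolites, and the Slc25 proteins are the family of small transporters that carry nucleotides, phosphate, carboxylates, amino acids, acylcarnitines and cofactors across it. In the heart, the ADP/ATP carrier and the phosphate carrier supply ATP synthase with its substrates and return ATP to the cytosol. The malate-aspartate shuttle, which moves reducing equivalents from the cytosol into the matrix, and the carnitine shuttle, which brings in fatty acids, each depend on carriers of this family.

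The study used male WT and SIRT5OE littermates aged 4 to 8 months at surgery, and the 15 hearts were taken 4 weeks later. It lists its TAC mice in 3 batches. The labels used here give neither the litter nor the batch of a heart, so neither was in the fit. In WT there were 4 hearts after sham surgery and 4 after TAC, and in SIRT5OE 3 and 4. TAC narrows the aortic arch so that the left ventricle pumps against a raised pressure, and sham mice had the operation without the band. SIRT5OE mice carry a LoxP-STOP-LoxP-SIRT5 cassette under the CAGGS promoter at the Col1a1 locus, made from 1 embryonic stem cell clone, with the STOP removed by Sox2-Cre. Overexpression was therefore present throughout the body and not only in cardiomyocytes. RNA of a whole heart mixes cardiomyocytes with other cells, so fewer cells of a type and less RNA per cell cannot be told apart.

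Sirt5 was at 1574 to 2366 normalized counts in the 8 WT hearts and at 30432 to 43932 in the 7 SIRT5OE hearts, as their labels state. Normalized counts summed to 56233957 to 74282028 per heart. The median share encoded by mitochondrial DNA was 35.6% after sham surgery and 24.4% after TAC in WT, and 34.5% and 31.2% in SIRT5OE. Of the nuclear counts, the 43 members took a median of 1.04% and 0.802% in WT and of 1.06% and 0.861% in SIRT5OE. Each heart is 1 sample, and p-values measure the spread between these hearts. All 6 cardiomyocyte markers listed (Myh6, Tnnt2, Tnni3, Actn2, Ryr2 and Myl2) were well above the filter in each group.

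One member made up most of the family's transcript. In WT sham hearts Slc25a4, the ADP/ATP carrier of heart and skeletal muscle, was at 114763 ± 2459.9 normalized counts per kb of exon (SD, n = 4), which was 66.3% of the sum over all members per kb. The phosphate carrier Slc25a3 followed at 15008 ± 799 and the oxoglutarate/malate carrier Slc25a11 at 14458 ± 553, whose hearts overlapped. Slc25a5, the ADP/ATP carrier of most other tissues, came next at 7965 ± 484 per kb. Slc25a34, whose substrate is not settled, was at 3746 ± 406 and the aspartate/glutamate carrier Slc25a13 at 2523 ± 88.6 per kb. Apart from Slc25a3 and Slc25a11, each of these 6 was separated from the next in the order in all 4 hearts. Together they held 91.6% of the sum per kb. The places after Slc25a5 depend on the length used. By the longest transcript, Slc25a20 (3779 per kb) came before Slc25a34 (3746), and Slc25a39 (3254) before Slc25a13 (3070). Over the whole order 11 of 42 neighbouring pairs did not overlap, 9 of them among the first 13 members, so the order below those is mostly within the spread of the hearts. At the low end, 5 members had a mean under 100 normalized counts in WT sham hearts.

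**Figure D1:**
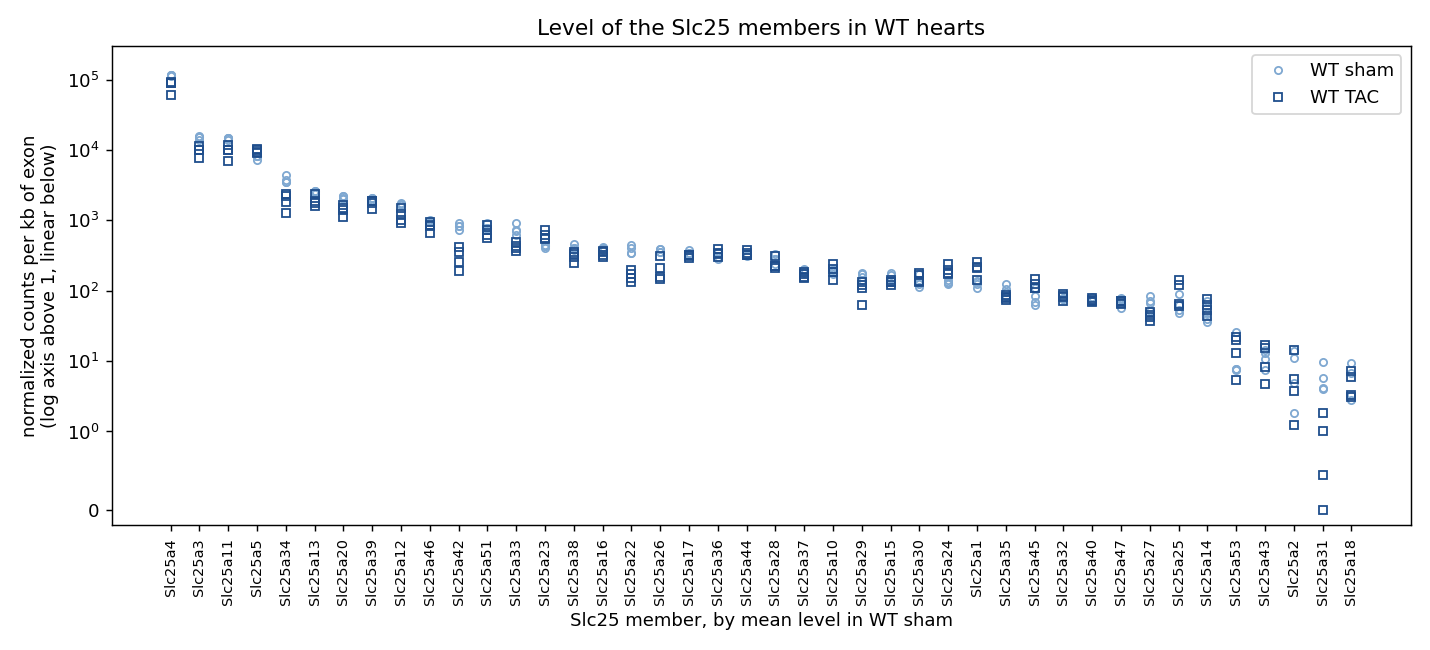
Level of 42 of the 43 Slc25 members in WT sham (circles) and WT TAC (squares) hearts, in normalized counts per kb of exon on an axis that is logarithmic above 1 and linear below, with 1 point for each heart. Slc25a4 stands above all others in both groups, and the 5 members at the right, from Slc25a53 to Slc25a18, have the lowest mean per kb in WT sham.

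TAC lowered more carriers than it raised in WT hearts. Of the 43 members, 15 were lower and 5 higher in WT TAC than in WT sham hearts at an adjusted p under 0.05 (limma, Benjamini-Hochberg over all 16518 features), while 23 passed in neither direction. Over all features, 16.4% were called lower and 17.3% higher. The median log2 fold change was -0.24 over the members and -0.01 over all features. The 2 groups of hearts did not overlap for 18 members that were lower and 4 that were higher, against 15.4% and 16.2% of all features. Only Slc25a42, Slc25a22, Slc25a34 and Slc25a31 changed by more than 1 on the log2 scale as well, a call that 11.5% of all features met. Slc25a31 counts among the 15 lower although no WT TAC heart reached 10 for it. The number higher was 3 without WT sham 2 or without WT TAC 4. The plot of changes by role shows each member with its interval.

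**Figure D2:**
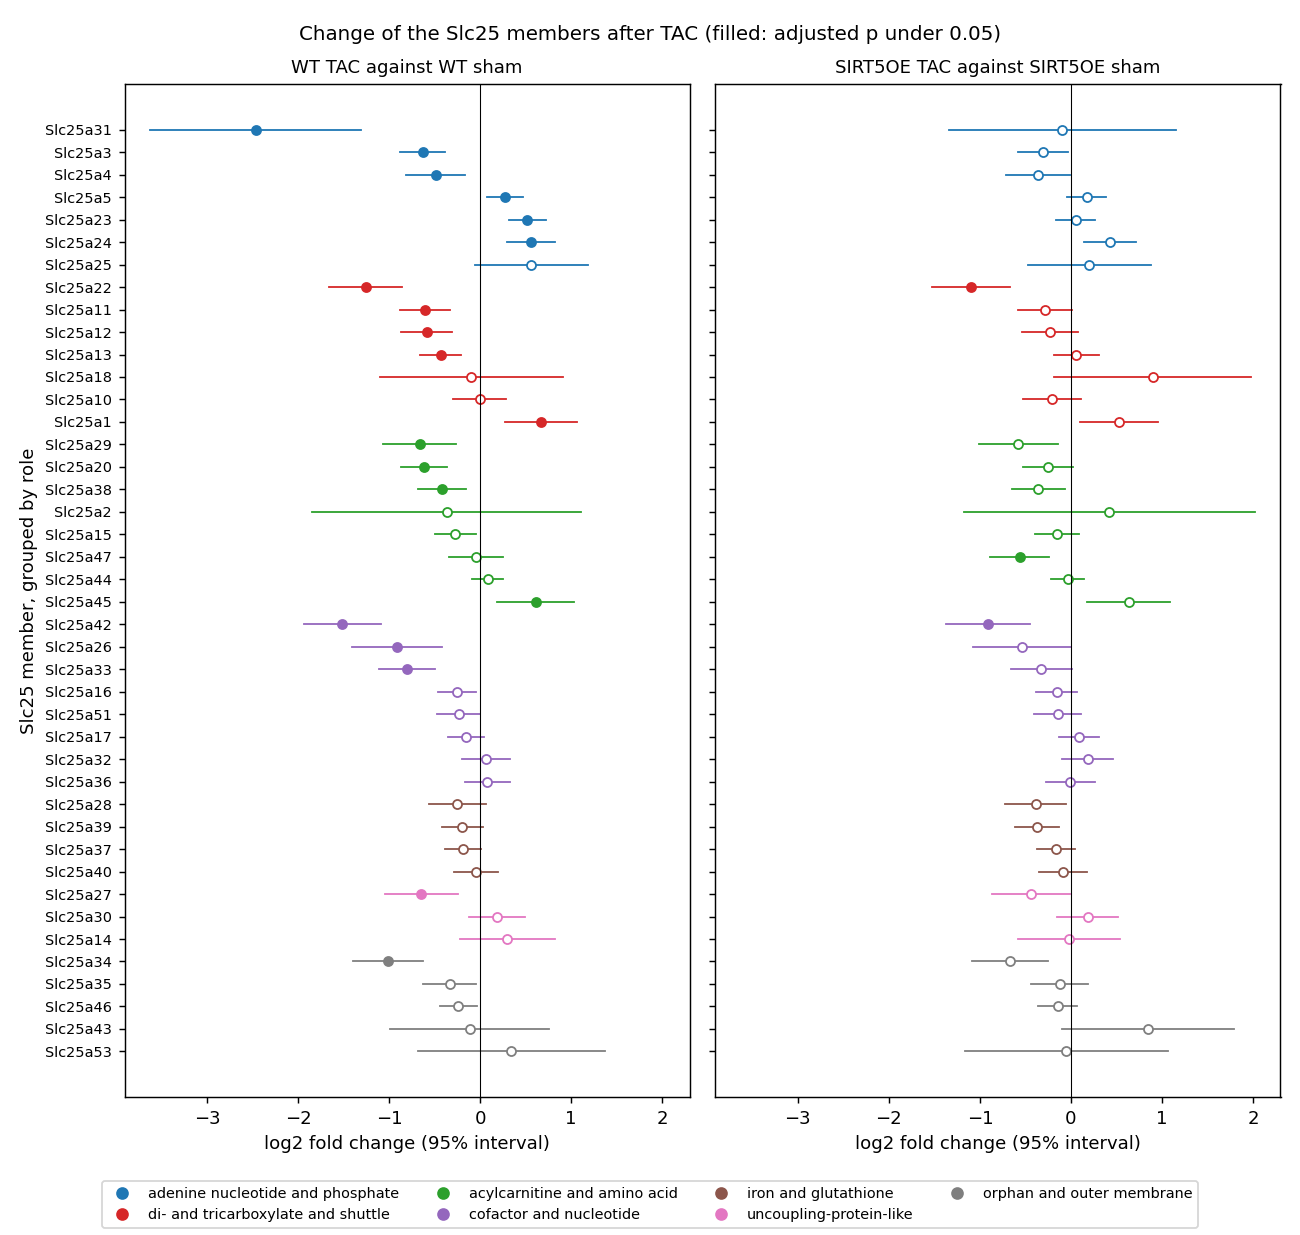
Log2 fold change of 42 of the 43 Slc25 members, with its 95% interval from limma, for TAC against sham in WT (left) and SIRT5OE (right) hearts, coloured by role, filled where the adjusted p was under 0.05. In WT 15 filled points lie left of 0 and 5 right of it, and in SIRT5OE 3 lie left and 0 right.

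The carriers of adenine nucleotides and phosphate split, with 3 of 7 lower and 3 higher in WT TAC hearts. Those lower were Slc25a4, Slc25a3 and Slc25a31. No WT TAC heart reached 10 normalized counts for Slc25a31, so its place in this tally carries little weight. Slc25a4 (ENSMUSG00000031633, chr8:46206797-46211284, minus strand) was at 276770.0, 262962, 271797 and 268618 normalized counts, the unit of all heart values below, in the WT sham hearts and at 210782, 143539, 218690.0 and 208734 in the WT TAC hearts. Each TAC heart was below each sham heart, and WT TAC 2 was far below the other three (log2 fold change -0.49, SE 0.15, adjusted p = 0.0223). Without WT TAC 2 the change was -0.34 and was not called (adjusted p = 0.0634), nor was it without WT sham 1 (adjusted p = 0.0523), with no filter on low values (adjusted p = 0.0843) or with the 2 groups fitted alone (adjusted p = 0.0522). Its paralog Slc25a5 (ENSMUSG00000016319, chrX:36795651-36798807, plus strand) went the other way, with 13420.0, 11932, 13402 and 13688 in sham and 16239.6, 15623, 14725 and 16977 in TAC hearts. The groups again did not overlap (log2 fold change 0.28, SE 0.09, adjusted p = 0.0303). That call was lost without WT sham 1, WT sham 2, WT TAC 1 or WT TAC 4 (adjusted p = 0.0506, 0.0974, 0.0629 and 0.0742), and with no filter (adjusted p = 0.0515).

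Since both ADP/ATP carriers were measured in the same hearts, their ratio is free of any scaling between hearts. Slc25a5 per kb was 6.93%, 6.49%, 7.05% and 7.28% of Slc25a4 in the WT sham hearts and 11%, 15.6%, 9.63% and 11.6% in the WT TAC hearts. In SIRT5OE it was 7.18%, 7.07% and 5.90% in sham and 8.33%, 8.48%, 12.3% and 10.2% in TAC hearts. In both genotypes all TAC hearts were above all sham hearts, and the 2 TAC groups overlapped.

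Slc25a3 (ENSMUSG00000061904, chr10:91116574-91124059, minus strand), which imports phosphate for ATP synthesis, was at 84139, 77008, 87413 and 84629 in WT sham and 55873, 42526, 62634 and 55780.4 in WT TAC hearts. All 4 TAC hearts were below the sham hearts (log2 fold change -0.63, SE 0.12, adjusted p = 0.000878). Of the 3 calcium-regulated ATP-Mg/phosphate carriers 2 rose. Slc25a23 (ENSMUSG00000046329, chr17:57043711-57059863, minus strand) was at 2299, 2341, 2290.2 and 2143 in sham and 3278, 2915, 2988 and 3888 in TAC hearts, with no overlap (log2 fold change 0.52, SE 0.09, adjusted p = 0.000737). Slc25a24 (ENSMUSG00000040322, chr3:109123149-109168457, plus strand) went from 442, 492, 451 and 427 to 614, 819, 585 and 667, also without overlap (log2 fold change 0.56, SE 0.13, adjusted p = 0.00312). Slc25a25, of the same subfamily, had a log2 fold change of 0.56 and was not called (adjusted p = 0.153). Slc25a31, the ADP/ATP carrier of germ cells, was at 20.7, 8.58, 12.4 and 8.9 in sham and 2.13, 0.949, 0 and 3.88 in TAC hearts. Its fitted log2 fold change of -2.46 (adjusted p = 0.00279) is the largest of the family, but at these values it depends on the pseudocount of 1. With no WT TAC heart at 10, it passed the filter only through the other groups, so its calls against WT TAC carry little weight. Slc25a31 and the folate carrier Slc25a32 each had 2 rows of identical values, counted here once, and whether a row holds all or part of the gene's reads is not known.

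**Figure D3:**
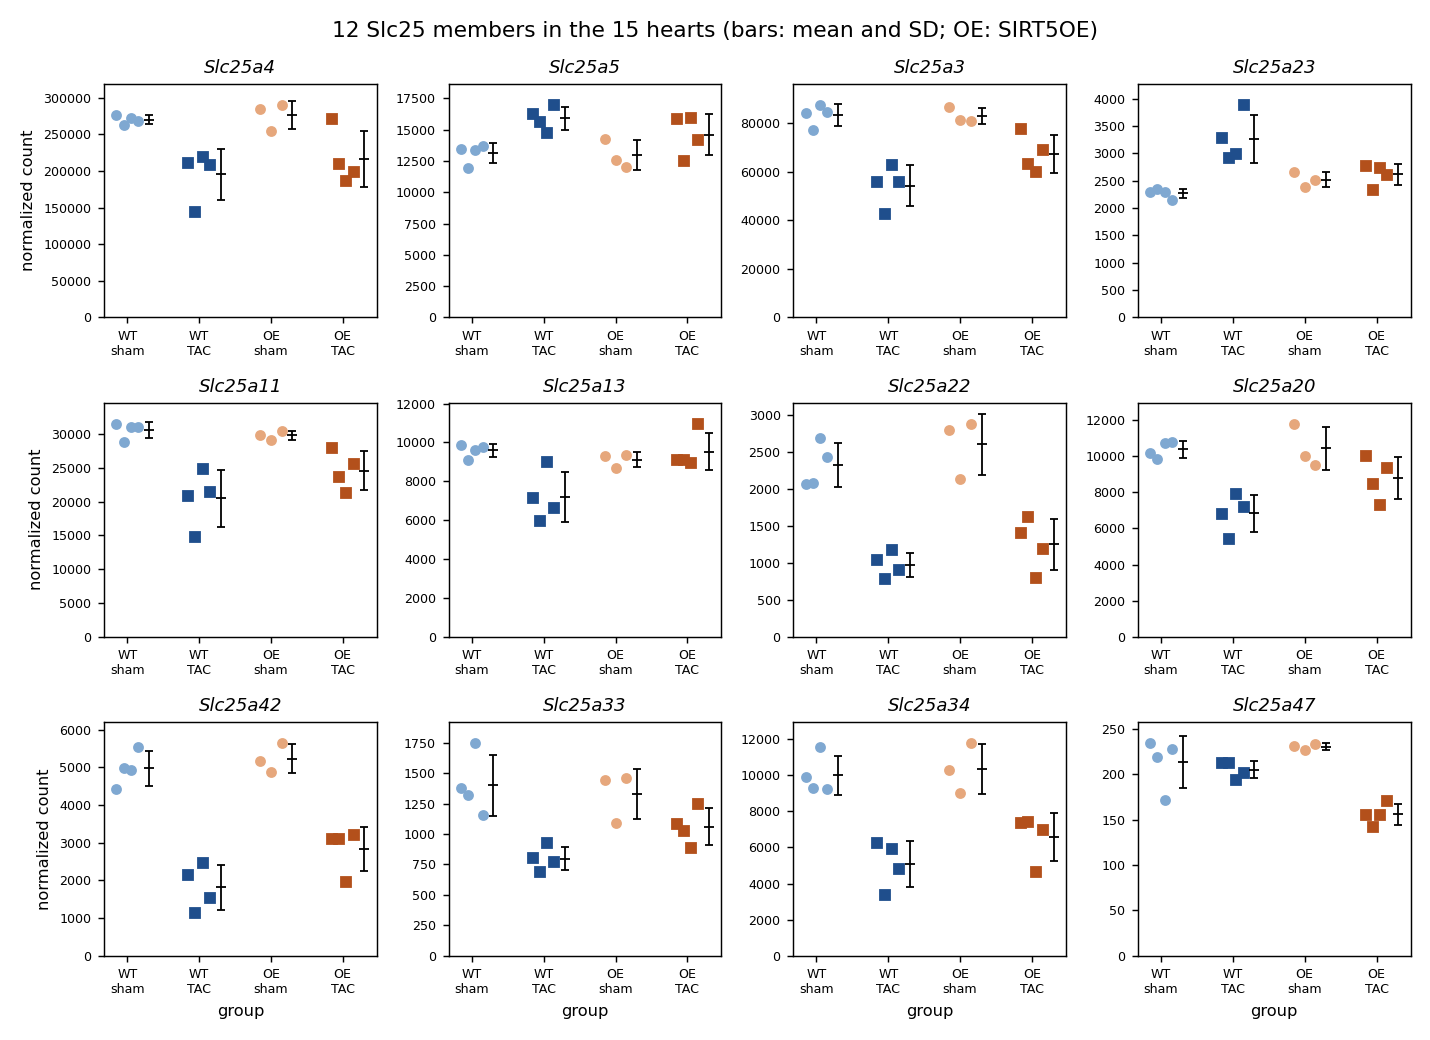
Normalized counts of 12 Slc25 members in the 15 hearts, 1 point for each heart, with the mean and SD of each group beside it. After TAC the WT hearts are lower for Slc25a4, Slc25a3, Slc25a11, Slc25a13, Slc25a22, Slc25a20, Slc25a42, Slc25a33 and Slc25a34, with no overlap with WT sham, and higher for Slc25a5 and Slc25a23.

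Of the carboxylate and shuttle carriers, 4 of 7 were lower and 1 was higher. The transcripts of the malate-aspartate shuttle fell together: Slc25a11, which exchanges malate for oxoglutarate, and both aspartate/glutamate carriers, Slc25a12 and Slc25a13. Slc25a11 (ENSMUSG00000014606, chr11:70644196-70647479, minus strand) was at 31514, 28920.3, 31141 and 31024 in WT sham and 20819, 14758, 24915 and 21399 in WT TAC hearts (log2 fold change -0.61, SE 0.13, adjusted p = 0.00205). Slc25a13 (ENSMUSG00000015112, chr6:6041218-6217173, minus strand) was at 9859, 9106, 9594 and 9772 and 7145, 5969, 8971 and 6625 (log2 fold change -0.43, SE 0.11, adjusted p = 0.00569). Slc25a12 fell with a log2 fold change of -0.58 (adjusted p = 0.00317). For none of the 3 did the WT groups overlap. All 4 enzymes of the shuttle were lower too, with Mdh1 at -0.74 (adjusted p = 0.00101), Got1 at -0.40 (adjusted p = 0.00588) and Got2 at -0.46 (adjusted p = 0.00631) on the log2 scale.

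Slc25a22 (ENSMUSG00000019082, chr7:141429744-141437892, minus strand), a glutamate carrier, fell most in this group. It was at 2069.7, 2081, 2689 and 2435 in WT sham and 1030.3, 786, 1169 and 906 in WT TAC hearts (log2 fold change -1.26, SE 0.19, adjusted p = 0.000177). Every sham heart was above every TAC heart. The citrate carrier Slc25a1 was higher (log2 fold change 0.67, SE 0.19, adjusted p = 0.0119). The dicarboxylate carrier Slc25a10 (-0.00) and the second glutamate carrier Slc25a18 (-0.10, at 4.3 to 17.8 normalized counts over all hearts) were not called.

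Among the carriers of acylcarnitines and amino acids, 3 of 8 were lower and 1 was higher. Slc25a20 (ENSMUSG00000032602, chr9:108662088-108684641, plus strand), which exchanges acylcarnitine for carnitine in fatty acid oxidation, was at 10200.1, 9839.5, 10761 and 10784 in WT sham and 6825, 5435, 7889 and 7205 in WT TAC hearts. The groups did not overlap (log2 fold change -0.62, SE 0.12, adjusted p = 0.00102). Of the 8 genes listed for the rest of the carnitine shuttle, 7 were lower and 1 higher, and the smallest adjusted p were those of the carnitine importer Slc22a5 (-0.80, adjusted p = 0.00109) and the acetyltransferase Crat (-0.85, adjusted p = 0.00132). The basic amino acid carrier Slc25a29 (-0.67, adjusted p = 0.0132) and the glycine carrier of haem synthesis Slc25a38 (-0.42, adjusted p = 0.0179) were lower, the latter not without WT sham 1 (adjusted p = 0.0577) or WT TAC 2 (adjusted p = 0.0611). Slc25a45 was higher (0.61, adjusted p = 0.0262), a call lost without WT sham 2, WT sham 4, WT TAC 2 or WT TAC 4 (adjusted p = 0.0748, 0.0874, 0.057 and 0.0759). Slc25a2, Slc25a15, Slc25a44 and Slc25a47 were not called.

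Cofactor and nucleotide carriers held the largest well-measured fall. Slc25a42 (ENSMUSG00000002346, chr8:70184340-70212305, minus strand), which carries coenzyme A, was at 4423, 4985, 4939.6 and 5551 in WT sham and 2128, 1126, 2473 and 1539 in WT TAC hearts. The TAC hearts reached at most 2473, well under the lowest sham heart at 4423 (log2 fold change -1.51, SE 0.20, adjusted p = 8.81e-05). The pyrimidine nucleotide carrier Slc25a33 (ENSMUSG00000028982, chr4:149744036-149774277, minus strand) was at 1380.2, 1323, 1747 and 1153 and 806, 691, 923 and 768, with no overlap (log2 fold change -0.80, SE 0.15, adjusted p = 0.000677). Its relative Slc25a36 was not called (0.08, adjusted p = 0.648). Slc25a33 per kb was 172% to 332% of Slc25a36 in WT sham and 93.0% to 147% in WT TAC hearts, while in SIRT5OE the range of 156% to 260% in sham overlapped the 134% to 233% in TAC hearts. Slc25a26, which imports S-adenosylmethionine, was lower as well (log2 fold change -0.92, SE 0.23, adjusted p = 0.00687).

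Slc25a51 (ENSMUSG00000045973, chr4:45395923-45408766, minus strand) carries NAD, the cosubstrate of SIRT5, into the matrix and was described for that reason whatever its change. In WT it was at 4309.8, 4089, 4337 and 5015 after sham surgery and 4045, 3372, 4689.8 and 3112 after TAC. In SIRT5OE it was at 4821, 4599.6 and 4559 after sham surgery and 4363, 4379.9, 3816 and 4319.8 after TAC. WT sham and WT TAC hearts overlapped, and the change was not called (log2 fold change -0.24, 95% interval -0.47 to 0.00, adjusted p = 0.117). Without WT TAC 3 it was called (-0.34, adjusted p = 0.0139). No other comparison called it, with -0.14 for TAC in SIRT5OE (adjusted p = 0.525), 0.17 between the TAC groups (adjusted p = 0.345) and 0.07 between the sham groups (95% interval -0.18 to 0.33). The cofactor carriers Slc25a16 and Slc25a32 were not called either, nor was Slc25a17, a member of the family that is a peroxisomal carrier.

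None of the 4 iron and glutathione carriers was called in WT, with log2 fold changes from -0.25 to -0.04. These are the mitoferrins Slc25a28 and Slc25a37 and the glutathione carriers Slc25a39 and Slc25a40. Of the 3 carriers that resemble uncoupling proteins, Slc25a27 was lower (-0.65, adjusted p = 0.0144, and 0.0517 without WT sham 4), and Slc25a14 and Slc25a30 were not called. Of the 5 others, Slc25a34 (ENSMUSG00000040740, chr4:141618824-141623821, minus strand) was lower. It was at 9884, 9291, 11572 and 9265 in WT sham and 6241, 3373, 5923 and 4789.9 in WT TAC hearts, with no overlap (log2 fold change -1.01, SE 0.18, adjusted p = 0.000643). Slc25a35, Slc25a43, Slc25a53 and the outer-membrane protein Slc25a46 were not called.

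Other cell types and mitochondrial RNA moved in the same hearts. The summed normalized counts of the 6 cardiomyocyte markers were 2218970 to 2794230 in WT sham and 880460 to 1801030 in WT TAC hearts, with 5 of the 6 lower and Actn2 higher. Much of this fall was that of Myh6, at 1026730 to 1437460 and 173087 to 887822. The study describes a shift from Myh6 to Myh7 in failing hearts, so the sum is no measure of cardiomyocyte number. The sum of 5 fibroblast markers was 31904 to 38827 and 55774 to 89326, with 4 of 5 higher. The 3 markers of activated fibroblasts summed to 3123 to 4011 and 54424 to 144994, with all 3 higher, and all 4 macrophage markers were higher. The 3 neutrophil markers above the filter were higher, and the 5 erythroid markers were not called. Of the remaining lists, Kdr was the 1 of 4 endothelial markers called, and it was lower. Pdgfrb was the 1 of 4 smooth muscle and pericyte markers called and was higher, while the median log2 fold change of that list was -0.23. Ckm was lower and Cidea higher. Each was the only gene above the filter among 4 skeletal muscle and 3 brown fat markers, so neither stands for those tissues. Atrial and white fat markers were not called. The share of mitochondrially encoded counts was 34.7% to 36.2% in WT sham and 19.8% to 27.2% in WT TAC hearts. Their part in the changes of the carriers was not tested.

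Around the family, the genes that import carriers into the mitochondrion were called in neither direction (0 of 13 in WT, unadjusted p under 0.05 in 2, limma). Of 18 other inner-membrane transporters 5 were higher and 7 lower. Those of smallest adjusted p were the sideroflexin Sfxn3 (1.27, adjusted p = 0.000111), Mcub, a subunit of the calcium uniporter (1.44, adjusted p = 0.00034), and the pyruvate carrier subunit Mpc2 (-0.99, adjusted p = 0.000583). Family members with other symbols were counted apart from the 43. The uncoupling protein Ucp3 fell (-3.41, adjusted p = 7.71e-05), Mtch2 fell (-0.28, adjusted p = 0.0226) and Mtch1 rose (0.39, adjusted p = 0.0136). In the outer membrane, 2 of the 3 voltage-dependent anion channels were lower, Vdac3 (-0.54, adjusted p = 0.000779) and Vdac1 (-0.48, adjusted p = 0.00206).

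The start regions of the carriers were read for 7 motifs, on both strands, in RefSeq promoters of GRCm38.p6 that run from 250 bases before to 50 after a start. Of the 43 members 33 matched an entry, among them 13 of the 15 lower and all 5 higher in WT TAC. The motifs were chosen when these calls were known, and the matches are a description. The element of the estrogen-related receptors (TNAAGGTCA) was in 0 of the 33 members and in 1.43% of all genes with a promoter. Those genes number 27025, whether or not they passed the filter in these hearts. The half-site it contains (AAGGTCA) was in 1 member, Slc25a34, and in 5.38% of all. The core of NRF1 (CGCANGCG) was in 2, Slc25a3 and Slc25a31, and in 9.22% of all. The ETS site read by GABP (CCGGAAG) was in 6 members (18.2%) and 9.93% of all genes. It was in 4 of the 13 lower members (Slc25a3, Slc25a4, Slc25a20 and Slc25a38), 0 of the 5 higher and 2 of the 15 not called. The GC box (GGGCGG) was in 29 members (87.9%) and 38.2% of all genes, with 11 of the 13 lower, all 5 higher and 13 of the 15 not called. The E-box (CACGTG) was in 7 members (21.2%) and 8.09% of all genes, with 3, 1 and 3 of these sets. The YY1 site (AANATGGC) was in 2 members (6.06%) and 6.96% of all genes, with 1, 0 and 1. The members with the NRF1 core or the half-site were all among those lower.

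The promoters shown are those of the pair of ADP/ATP carriers that moved in opposite directions, of the phosphate carrier, which holds 4 of the 7 motifs, of Slc25a42, whose fall was the largest of a member above 100 normalized counts, and of Slc25a34, the one member with the half-site. They lie at chr8:46211013-46211312 (minus strand) for Slc25a4, chrX:36795347-36795646 (plus strand) for Slc25a5, chr10:91123918-91124217 (minus strand) for Slc25a3, chr8:70212232-70212531 (minus strand) for Slc25a42 and chr4:141623785-141624084 (minus strand) for Slc25a34. Each is written 5′ to 3′ along its gene, with any match to the 7 motifs in capitals.
Slc25a4: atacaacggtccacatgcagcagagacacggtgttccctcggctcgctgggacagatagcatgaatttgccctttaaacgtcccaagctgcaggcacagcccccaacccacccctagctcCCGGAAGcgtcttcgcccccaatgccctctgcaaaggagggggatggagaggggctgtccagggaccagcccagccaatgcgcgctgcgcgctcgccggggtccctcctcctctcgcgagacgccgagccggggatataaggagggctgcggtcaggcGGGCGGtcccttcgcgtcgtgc
Slc25a5: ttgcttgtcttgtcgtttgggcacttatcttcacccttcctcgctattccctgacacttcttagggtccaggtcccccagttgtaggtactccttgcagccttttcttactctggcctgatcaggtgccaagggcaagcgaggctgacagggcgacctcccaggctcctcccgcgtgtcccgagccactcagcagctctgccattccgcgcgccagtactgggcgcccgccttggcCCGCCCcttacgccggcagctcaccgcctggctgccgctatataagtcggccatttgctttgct
Slc25a3: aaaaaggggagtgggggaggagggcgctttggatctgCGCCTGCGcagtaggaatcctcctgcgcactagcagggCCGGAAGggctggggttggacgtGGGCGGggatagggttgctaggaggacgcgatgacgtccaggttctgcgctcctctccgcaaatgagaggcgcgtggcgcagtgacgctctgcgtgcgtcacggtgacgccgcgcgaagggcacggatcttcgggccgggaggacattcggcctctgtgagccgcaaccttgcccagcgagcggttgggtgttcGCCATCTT
Slc25a42: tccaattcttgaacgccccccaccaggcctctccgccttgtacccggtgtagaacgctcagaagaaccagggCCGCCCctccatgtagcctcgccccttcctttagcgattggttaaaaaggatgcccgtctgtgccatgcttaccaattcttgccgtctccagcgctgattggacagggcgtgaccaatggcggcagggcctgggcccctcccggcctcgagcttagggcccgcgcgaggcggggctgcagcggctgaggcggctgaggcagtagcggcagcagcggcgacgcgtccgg
Slc25a34: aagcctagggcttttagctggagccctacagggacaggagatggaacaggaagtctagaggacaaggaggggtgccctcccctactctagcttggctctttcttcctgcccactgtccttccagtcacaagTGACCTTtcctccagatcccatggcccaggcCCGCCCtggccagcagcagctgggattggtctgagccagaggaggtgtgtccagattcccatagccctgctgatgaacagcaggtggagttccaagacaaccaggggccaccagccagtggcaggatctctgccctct
In Slc25a4 the capitals are an ETS site and then a GC box, and in Slc25a3 the core of NRF1, an ETS site, a GC box and a YY1 site, in this order. Slc25a5 and Slc25a42 have a GC box alone, and Slc25a34 has the half-site followed by a GC box.

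In SIRT5OE hearts the family's response to TAC was led by Slc25a22 and Slc25a42, with few calls. With 3 sham and 4 TAC hearts, 3 of 43 members were lower (1.86% of all features) and 0 were higher (3.14% of all features), and 15 members and 3611 of all features were at an unadjusted p under 0.05 (limma). The median log2 fold change was -0.14 over the members and -0.01 over all features. Groups did not overlap for 13 lower and 5 higher members, against 11.8% and 12.6% of all features. One member, Slc25a22, changed by more than 1 as well, a call met by 1.98% of all features.

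Slc25a22 was at 2793, 2134 and 2879 in SIRT5OE sham and 1396, 1614, 789 and 1191 in SIRT5OE TAC hearts (log2 fold change -1.10, SE 0.20, adjusted p = 0.00833). Slc25a42 was at 5180.1, 4871 and 5642 and 3091, 3092, 1965 and 3191 (log2 fold change -0.91, SE 0.22, adjusted p = 0.0269). Both were lower in every TAC heart than in any sham heart, as in WT. Slc25a47 (ENSMUSG00000048856, chr12:108836046-108856815, plus strand), known mainly from liver, was the third and the only one not called in WT, with 231, 227 and 234 in sham and 155, 142, 155 and 171 in TAC hearts (log2 fold change -0.56, SE 0.15, adjusted p = 0.0427). In WT its sham hearts at 234, 219, 172 and 228 overlapped its TAC hearts at 213, 212, 194 and 201. The calls depended on single hearts and on settings of the fit. Slc25a22 was lost without SIRT5OE sham 1 (adjusted p = 0.0527) or 3 (adjusted p = 0.0613). Slc25a42 was lost without SIRT5OE sham 1, 2 or 3 (adjusted p = 0.0976, 0.0651 and 0.131) or SIRT5OE TAC 3 (adjusted p = 0.0787) or with no mean-variance trend (adjusted p = 0.0607). Slc25a47 was lost in 14 of 27 alternatives, in 10 of them because a single heart was left out (SIRT5OE sham 1, 2 and 3, SIRT5OE TAC 1, 2 and 3, WT sham 1, 2 and 4, and WT TAC 1), at adjusted p = 0.0505 to 0.164. Without WT TAC 2, which changes only the shared spread, 6 members were lower and 1 higher. The number lower was 0 without SIRT5OE sham 1 or 3 and 1 without SIRT5OE sham 2 or SIRT5OE TAC 3.

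Of the 15 members lower in WT TAC, 2 were also called in SIRT5OE, and 14 had a log2 fold change below 0 there. The 5 higher in WT were all above 0 in SIRT5OE and none was called. Slc25a4 was at 284371, 254196 and 290299 in SIRT5OE sham and 271380.0, 210188, 186064 and 198476 in SIRT5OE TAC hearts. The highest TAC heart lay within the sham range (log2 fold change -0.36, SE 0.17, adjusted p = 0.21). Slc25a5 was at 14291, 12572 and 11987 and 15822, 12466, 15947 and 14195, which overlapped (log2 fold change 0.17, SE 0.10, adjusted p = 0.341). Slc25a3 was at 86677, 81157 and 80959.9 and 77643, 63049, 59663 and 68961, without overlap and not called (log2 fold change -0.31, SE 0.13, adjusted p = 0.172).

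Slc25a34 was at 10296, 9009 and 11782 in SIRT5OE sham and 7330.0, 7434, 4631 and 6953 in SIRT5OE TAC hearts, also without overlap (log2 fold change -0.67, SE 0.20, adjusted p = 0.0597). It was called without WT TAC 2 (adjusted p = 0.0236) or WT TAC 3 (adjusted p = 0.0467). Slc25a11 was at 29893, 29112 and 30478 and 27976, 23655, 21276 and 25524 (log2 fold change -0.28, SE 0.14, adjusted p = 0.245). Slc25a20 was at 11801, 10015 and 9536 and 10014, 8495, 7310.1 and 9367 (log2 fold change -0.25, SE 0.13, adjusted p = 0.263). Slc25a33 was at 1441, 1092 and 1459 and 1084, 1021, 882 and 1249 (log2 fold change -0.33, SE 0.16, adjusted p = 0.238). For Slc25a11 the TAC hearts were all lower, and for Slc25a20 and Slc25a33 they overlapped the sham hearts.

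Slc25a23 was at 2667, 2378 and 2523 in SIRT5OE sham and 2776, 2336, 2740.1 and 2611 in SIRT5OE TAC hearts, which overlapped (log2 fold change 0.05, SE 0.10, adjusted p = 0.82). Slc25a24 was at 474, 509.7 and 384 and 588, 586, 659 and 609.5, which did not (log2 fold change 0.43, SE 0.14, adjusted p = 0.0782, and 0.0473 without WT TAC 2). Slc25a13 was at 9274, 8664 and 9371 and 9105, 9073, 8937 and 10944, with SIRT5OE TAC 4 above the other three (log2 fold change 0.06, SE 0.12, adjusted p = 0.811). Slc25a31 was at 6.43, 11 and 13.3 and 9.06, 9.51, 7.03 and 11.5 (log2 fold change -0.09, SE 0.59, adjusted p = 0.951).

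In these hearts the 6 cardiomyocyte markers summed to 2194800 to 2332790 in sham and 1519680 to 2247080 in TAC, with 0 of 6 called (limma, 3 at an unadjusted p under 0.05). The 3 markers of activated fibroblasts summed to 2845 to 4359 and 19960 to 133771, with all 3 higher and SIRT5OE TAC 3 at the high end. Of 5 fibroblast markers Col1a1 and Dcn were higher, with a sum of 33666 to 38862 in sham and 47652 to 79335 in TAC hearts. Of 4 macrophage markers Adgre1 was higher, with a sum of 4049 to 4564 and 4897 to 7036. Of the related lists, Crat of the carnitine shuttle (-0.71, adjusted p = 0.0347) and Ucp3 (-1.74, adjusted p = 0.0487) were lower and Sfxn3 (0.72, adjusted p = 0.0397) was higher. None of the malate-aspartate enzymes, import genes or anion channels was called. How far the cell markers bear on the carriers was not tested.

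**Figure D4:**
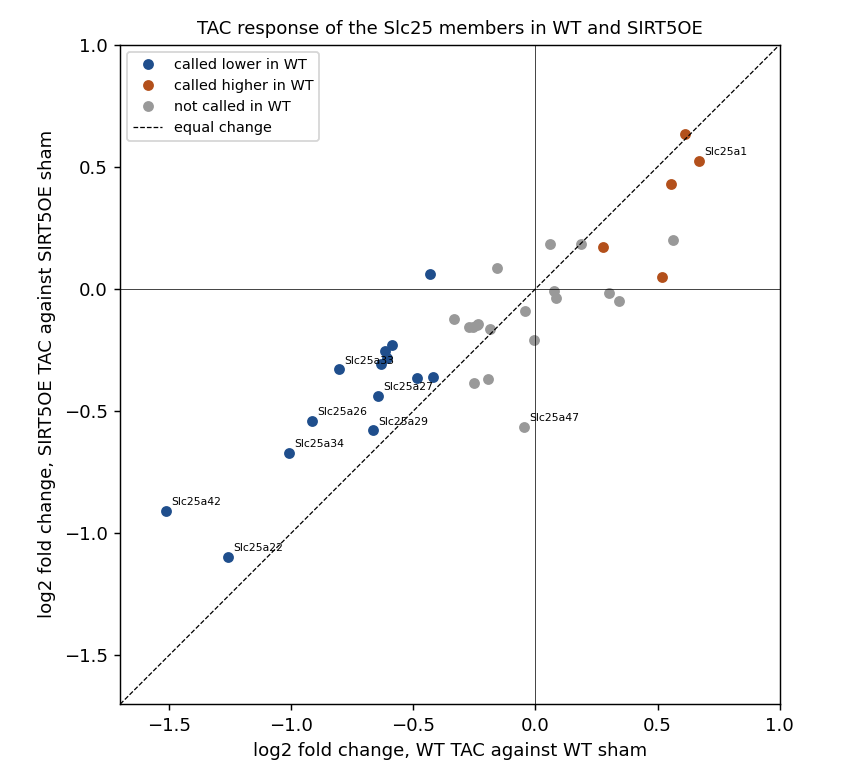
Log2 fold change of TAC against sham for 38 Slc25 members in WT (x) and SIRT5OE (y) hearts, coloured by the call in WT, with the line of equal change. The 4 members that did not reach 10 normalized counts in all hearts (Slc25a2, Slc25a18, Slc25a31 and Slc25a43) and 1 other are not drawn, and Slc25a42 and Slc25a22 lie lowest on both axes.

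The effect of TAC was not shown to differ between genotypes for any member. In the interaction of genotype and TAC, 0 of 43 members and 0% of all features passed (limma), with 5 members and 2183 features at an unadjusted p under 0.05. The 5 were Slc25a23 (-0.47, 95% interval -0.76 to -0.17, adjusted p = 0.349), Slc25a13 (0.49, 0.16 to 0.83), Slc25a31 (2.37, 0.67 to 4.08, which depends on the pseudocount), Slc25a47 (-0.52, -0.95 to -0.08) and Slc25a33 (0.48, 0.02 to 0.93). For the other 38 the interval included 0. The interval of Slc25a42 was -0.03 to 1.23, so that equal changes and a difference of more than 1 on the log2 scale were both within it.

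Compared directly after TAC, SIRT5OE and WT hearts differed in few carriers. Slc25a13 and Slc25a31 were higher with SIRT5OE (2 of 43, with 3.84% of all features) and 0 were lower (3.48% of all features), while 13 members and 4769 of all features were at an unadjusted p under 0.05 (limma). Of all calls 52.5% were higher, and 37.1% after scaling to the sum of nuclear genes. The groups did not overlap for 2 members that were higher and 2 that were lower, against 4.04% and 3.95% of all features. Those higher were Slc25a31 and Slc25a35, and those lower were Slc25a23 and Slc25a47. Slc25a31 alone changed by more than 1 as well, which 1.94% of all features did, and it passed the filter only through groups other than WT TAC. The median log2 fold change of the members was 0.17, against 0.00 over all features. This comparison shares its WT TAC hearts with that of WT TAC and WT sham.

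For Slc25a13 the values in SIRT5OE TAC and WT TAC hearts, given above, overlapped in WT TAC 3 at 8971 (log2 fold change 0.42, SE 0.11, adjusted p = 0.0366). The call was lost in 14 of 27 alternatives, with adjusted p = 0.05 to 0.188. Single hearts whose removal ended it were SIRT5OE sham 2 and 3, SIRT5OE TAC 1, 2 and 4, WT sham 1 and 2, and WT TAC 1, 2 and 4. Slc25a31, at 0 to 3.88 in WT TAC and 7.03 to 11.5 in SIRT5OE TAC hearts, did not overlap (log2 fold change 2.12, SE 0.55, adjusted p = 0.0367), and its call was lost in 12 of 26 alternatives, among them each removal just named other than WT sham 1 and WT TAC 1. Its fold depends on the pseudocount here too, and was 1.11 to 2.50 over the alternatives. Slc25a42 had a log2 fold change of 0.68 and just missed the threshold (adjusted p = 0.0516). It passed without WT TAC 1 (adjusted p = 0.0477), WT TAC 3 (adjusted p = 0.00737) or SIRT5OE TAC 3 (adjusted p = 0.0104). Slc25a23 was lower in each SIRT5OE TAC heart than in any WT TAC heart (log2 fold change -0.31, SE 0.09, adjusted p = 0.0533), and passed without WT TAC 3 (adjusted p = 0.0237) or SIRT5OE TAC 3 (adjusted p = 0.0395).

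The number of members called between the TAC groups moved with single hearts. It was 9 higher and 1 lower without SIRT5OE TAC 3, 10 higher and 2 lower without WT TAC 3, 1 higher without WT sham 1, and 0 higher without any 1 of SIRT5OE sham 2 and 3, SIRT5OE TAC 1, 2 and 4, WT sham 2, and WT TAC 2 and 4. Among related genes, Crot of the carnitine shuttle (0.37, adjusted p = 0.0423), Ucp3 (1.87, adjusted p = 0.0337), Mpc2 (0.79, adjusted p = 0.0323) and Mpc1 (0.33, adjusted p = 0.0488) were higher in SIRT5OE TAC hearts. In the same comparison the cardiomyocyte markers summed to 1519680 to 2247080 in SIRT5OE TAC and 880460 to 1801030 in WT TAC hearts, with 0 of 6 called (limma, 4 at an unadjusted p under 0.05). Of the markers of other cells, those called were lower with SIRT5OE: Col1a1 of 5 for fibroblasts (-1.35, adjusted p = 0.0339), Meox1 of 3 for activated fibroblasts (-1.45, adjusted p = 0.0287), C1qa of 4 for macrophages (-0.49, adjusted p = 0.0383) and Retnlg of 3 for neutrophils (-2.47, adjusted p = 0.0344). Col1a1 is also the locus of the SIRT5 cassette, and the median of the 5 fibroblast markers was -0.11. The 4 smooth muscle and pericyte markers had a median log2 fold change of 0.25 (-0.30 to 0.52) and the 4 endothelial markers 0.04, with 0 called. In SIRT5OE TAC and WT TAC hearts, the fibroblast markers summed to 47652 to 79335 and 55774 to 89326, and those of activated fibroblasts to 19960 to 133771 and 54424 to 144994. The high end in SIRT5OE TAC was 1 heart, SIRT5OE TAC 3, with Postn at 104152. The other SIRT5OE TAC hearts had Postn at 14311 to 18469, and the WT TAC hearts at 38821 to 113834. The sums of the macrophage markers (4897 to 7036 and 7130 to 8361) and of the neutrophil markers (88.6 to 155 and 215 to 370) did not overlap. The share of mitochondrially encoded counts was 27.9% to 35.0% and 19.8% to 27.2%. The part of these in the carriers was not tested.

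Without TAC no carrier was called between the genotypes. In SIRT5OE sham against WT sham hearts 0 of 43 members were higher (0.0182% of all features) and 0 lower (0% of all features), and 0 members and 426 of all features were at an unadjusted p under 0.05 (limma). The groups did not overlap for 3 members that were higher and 0 that were lower, against 3.71% and 3.67% of all features. The 3 were Slc25a16, Slc25a23 and Slc25a32. Slc25a23 had the smallest p of the family, with a log2 fold change of 0.15 (95% interval -0.06 to 0.37, adjusted p = 1). Among the 38 members of at least 100 normalized counts in WT sham the change was at most 0.33, and the 95% intervals reached from -0.84 to 0.89 at their widest. A p that misses the threshold does not show equal levels.

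Other pairs of paralogs kept or shifted their ratio with TAC as follows. The liver type aspartate/glutamate carrier Slc25a13 per kb was 144% to 152% of Slc25a12 in WT sham and 152% to 175% in WT TAC hearts, with an overlap at the edge. In SIRT5OE it was 137% to 144% in sham and 152% to 199% in TAC hearts, with none. The mitoferrin Slc25a37 was 60.7% to 74.4% of Slc25a28 in WT sham and 51.1% to 82.8% in WT TAC hearts, and 67.1% to 71.3% and 62.3% to 105% in SIRT5OE, so both genotypes overlapped. These ratios are descriptions with no test.

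**Figure D5:**
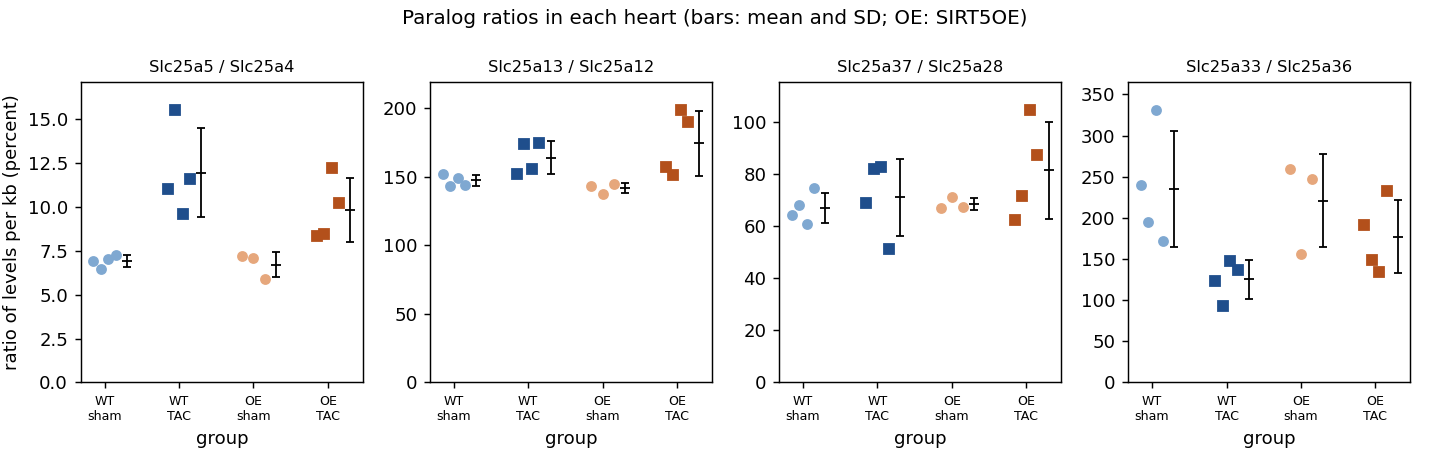
Ratio of the levels per kb of 4 pairs of Slc25 paralogs, in percent, in each of the 15 hearts by group, with the mean and SD beside the points. For Slc25a5 over Slc25a4, all TAC hearts lie above all sham hearts of their genotype.

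Some values carry a limit of the annotation. The exons of 13 members overlap those of another gene, on the opposite strand except for Slc25a47 and Slc25a51, which overlap genes of small RNAs, and how strand was handled is not given in the sources used here. Of the members described heart by heart they are Slc25a11, Slc25a23, Slc25a33, Slc25a47 and Slc25a51. The overlap is largest for Slc25a35, which shares 1151 bases with Rangrf, whose mean normalized count was 553% of that of Slc25a35. By the same measure Gm16867, a copy of part of Slc25a37, was at 44.4% of Slc25a37, and Gm11032 at 102% of Slc25a43. The values of these 3 members are therefore uncertain. These percentages are not per kb: Gm16867 has 342 bases, against 6021 bases of exon in Slc25a37. For Slc25a5 the 7 near copies summed to 0.0443% of its mean normalized count.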

How the data were processed

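Total RNA of 15 whole mouse hearts was depleted of ribosomal RNA and sequenced on an Illumina HiSeq4000. The authors estimated transcript counts with kallisto, summed them to genes with tximport and divided them by the size factor of each library from DESeq2, and deposited the resulting signal values, called normalized counts here. The submitters' processing notes name kallisto 0.43.1 and mm10, while the methods of the study name another version. Raw counts and the number of reads per heart were not used here, so no count model was fitted and no counting interval is given. A total of normalized counts is not a read depth.

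The table has 36727 rows, and all 15 columns matched a sample, leaving 0 unmapped. Groups came from the genotype and surgery labels. Rows of 1 symbol with the same values in every heart (276 symbols, Slc25a31 and Slc25a32 among them) were merged after the data were seen, which removed 172 rows of the 16690 that passed the filter. The 16518 features whose value was 10 or more in 3 hearts or more were analysed as log2(normalized count + 1), which understates changes of low genes. The 4 group means were fitted in limma 3.58.1 (R 4.3.3) with no covariate, eBayes used a mean-variance trend, and tests were two-sided with Benjamini-Hochberg adjustment over all features. A feature was called at an adjusted p under 0.05. The fit was tested on simulated data.

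Levels per kb used the union of exons in GENCODE vM21 (GRCm38), and near copies were found with blastn 2.17.0. Gene coordinates are of GRCm38. Promoters were taken from RefSeq. Tables and figures were made in Python 3.11.15 with pandas 2.3.3 and matplotlib 3.10.9.

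Values in every heart are given for the 6 members of highest level per kb in WT sham, the 10 called members of smallest adjusted p in WT, the called members of SIRT5OE and of the comparison of TAC groups, the member of smallest p in the sham comparison and the interaction, the 3 largest called changes of each TAC comparison, and Slc25a51. The lists were carrier import, malate-aspartate and carnitine shuttle enzymes, other inner-membrane transporters, outer-membrane channels, family members with other symbols and markers of 12 cell types. The members, lists and tests were chosen with earlier results of these data known. Alternatives were other pseudocounts, filters, scalings, samples in the fit, a replicate block, array weights, no trend, a fold threshold, each heart left out in turn, and, added after the data were seen, all rows as deposited. One member and 1 gene of a list are not reported here by name, and the member is not drawn, but both are in the counts.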

Additional observations from a re-analysis of the deposited data

Results flagged for a closer look

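In 129 groups of 4 hearts, 11 held a heart whose gap to the nearest other heart was over 0.829 of the group's range. For independent normal values chance gives about 1 in 20 groups (6.45 here). The members were read in the same hearts, so the groups are not independent, and 11 beside 6.45 is no test. All values are normalized counts. Both ADP/ATP carriers had such a heart. Slc25a4 was at 143539 in WT TAC 2 and at 208734 to 218690 in the other WT TAC hearts, and Slc25a5 was at 11932 in WT sham 2 and at 13402 to 13688 in the others.

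SIRT5OE TAC 3, which had the highest Postn of the SIRT5OE TAC hearts (104152), was the low heart for 3 members. It had 8681 for Slc25a12 (others 11142 to 11571), 1965 for the coenzyme A carrier Slc25a42 (others 3091 to 3191) and 3816 for the NAD carrier Slc25a51 (others 4320 to 4380). SIRT5OE TAC 4 was the high heart for Slc25a13, at 10944 (others 8937 to 9105), and for Slc25a30, at 803 (others 653 to 669).

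Slc25a28 was at 1159.9 in WT TAC 4 (others 788 to 837), and Slc25a35 was at 409 in SIRT5OE TAC 2 (others 336 to 343). Among sham hearts, Slc25a44 was at 1107 in WT sham 3 (others 1167 to 1169) and Slc25a53 at 205 in WT sham 4 (others 59.7 to 61.9). The causes were not tested. No member's response to TAC was shown to differ between genotypes.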

How the results depend on the processing

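Of 5785 values of single members under 27 alternatives (26 for the 4 members that a filter of at least 50 removes), 0 changed direction while called, 64 lost a call and 58 gained one, and 177 of 215 member comparisons kept their call throughout. For WT TAC against WT sham, the 5 members higher became 3 to 5 with a heart left out and 0 with a log2 fold change over 1 required, and the 15 lower became 13 to 18 and 4. For SIRT5OE TAC against SIRT5OE sham, the 0 higher became 2 with array weights and 0 to 1 with a heart left out. The 3 lower became 8 with array weights, 0 to 6 with a heart left out and 1 with the fold required. For SIRT5OE TAC against WT TAC, the 2 higher became 0 with no filter, with the 2 groups alone or with no mean-variance trend, 1 with the fold required and 0 to 10 with a heart left out. The 0 lower became 1 with a filter of at least 50, with scaling to the sum of nuclear genes or with array weights, and 0 to 2 with a heart left out. The sham comparison and the interaction stayed at 0 members. Over all features, the 1210 calls between the TAC groups became 246 with no filter, 3 with the 2 groups alone, 42 with no trend, and 5 (without SIRT5OE TAC 4) to 3332 (without WT TAC 3) with a heart left out. The 826 of SIRT5OE became 2115 with array weights, 429 with no trend and as few as 126 (without SIRT5OE sham 3), the 3 of the sham comparison became 1 to 17, and the 0 of the interaction at most 45 (without WT TAC 3). The causes of these shifts were not tested, except that filters change the number of features tested.

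Hearts of different groups share replicate numbers, but same-numbered hearts did not deviate together (r of -0.295 to 0.0796 over 21 pairs, with 5 of 15 hearts closest to their own number). With a replicate block the 3 members lower in SIRT5OE became 1 and the 2 higher between the TAC groups became 0, and over all features their calls became 458 and 20. Slc25a42 was among those lost in SIRT5OE (limma, adjusted p = 0.0579).

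With 3 or 4 hearts a group, members near the threshold moved across it with single hearts. Members under 100 normalized counts had wide intervals, and of these only Slc25a31 was called, with a fold that depends on the pseudocount. Normalized counts carry no read depth.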
